A study of Saccharomyces cerevisiae with 14 samples.

Results

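The 49 nuclear genes described here encode enzymes of the mitochondrial respiratory chain, the ATP synthase and the tricarboxylic acid (TCA) cycle of budding yeast. They were taken by name from a list of the subunits and enzymes, and all 49 were found among the 6002 nuclear protein-coding genes of the reference annotation. Sorted by enzyme complex they comprise 4 genes of complex II, 2 NADH dehydrogenases, 9 genes of complex III, 3 genes grouped as cytochrome c and CYB2, 9 of complex IV, 12 of the ATP synthase and 10 of the TCA cycle. They lie on 14 of the 16 chromosomes, and all 49 are among the 5871 genes that start more than 10 kb from a chromosome end, which serve as the background ("all genes") throughout.

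In respiration, the TCA cycle oxidises acetyl groups, and the electrons are carried by NADH or taken from succinate. Complex II and, in this yeast, single-subunit NADH dehydrogenases hand them to ubiquinone, complex III passes them to cytochrome c, and complex IV passes them to oxygen. The proton gradient so built drives the ATP synthase. Many of these genes are repressed while glucose is plentiful and are switched on by the Hap2/3/4/5 complex, which binds CCAAT boxes, and for some genes by the haem-responsive factor Hap1. SWI/SNF, of which Snf2 is the ATPase, slides and evicts nucleosomes, mainly in front of genes.

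Nucleosomes were mapped by MNase-seq, in which micrococcal nuclease digests linker DNA and the protected mononucleosomal DNA is sequenced. All strains were of BY4741 background and were grown in YPD, a rich glucose medium, at 30 °C. The strains were dAT and dSnAC, names read here as Snf2 without its AT-hook region and without its SnAC domain (3 samples each), CD, whose Snf2 is catalytically dead through K798A (3 samples), dSnf2, without Snf2 (2 samples), and WT (3 samples). The labels do not give the deleted residues of dAT and dSnAC. Each strain had 1 list of nucleosome calls made on merged replicates. The labels name 2 merged replicates for dAT and 2 for dSnAC. For CD, dSnf2 and WT they name none, and all samples (3, 2 and 3) were taken as merged.

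With 1 pooled list per strain there are no replicate values, so no difference below has a replicate check or a test, and all 4 comparisons share the WT list. The calls rested on 39312292 reads in dAT, 31881933 in dSnAC, 59767406 in CD, 41240133 in dSnf2 and 64981328 in WT. The SNF2 reading frame had a mean occupancy of 0.796 in dAT, 0.731 in dSnAC, 0.732 in CD, 0.00559 in dSnf2 and 0.663 in WT, so the dSnf2 label was borne out. Here and below an occupancy of 1 is the median nuclear call of the same list. An occupancy therefore says how a place ranks within its own list and not how much nucleosomal DNA a cell holds.

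Promoter occupancy, the mean from -300 to -1 bp of the start codon, was lower than in WT at nearly all of these genes in each mutant. The median over the 49 genes was 0.577 in dAT, 0.610 in dSnAC, 0.646 in CD, 0.716 in dSnf2 and 0.787 in WT. Over all genes the same medians were 0.603, 0.639, 0.684, 0.723 and 0.767. The respiratory median thus stood below the all-gene median in each of the 4 mutants and above it in WT. Ratios were taken as log2((mutant + 0.1)/(WT + 0.1)), and their median over the 49 genes was -0.41 in dAT, against -0.30 over all genes. It was -0.30 against -0.23 in dSnAC, -0.20 against -0.15 in CD and -0.12 against -0.085 in dSnf2.

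Promoters were lower than in WT at 48 of 49 genes in dAT, where 90.0% of all genes were. The count was 49 in dSnAC (background 89.1%), 48 in CD (87.1%) and 46 in dSnf2 (80.4%). All 4 mutants lay below WT at 45 of 49 genes, against 74.9% of all genes. The full order dAT, dSnAC, CD, dSnf2, WT, from low to high, was seen at 33 of 49 genes and at 46.3% of all genes. Since the genes were not tested against replicates, these shares describe the 5 lists only.

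**Figure D1:**
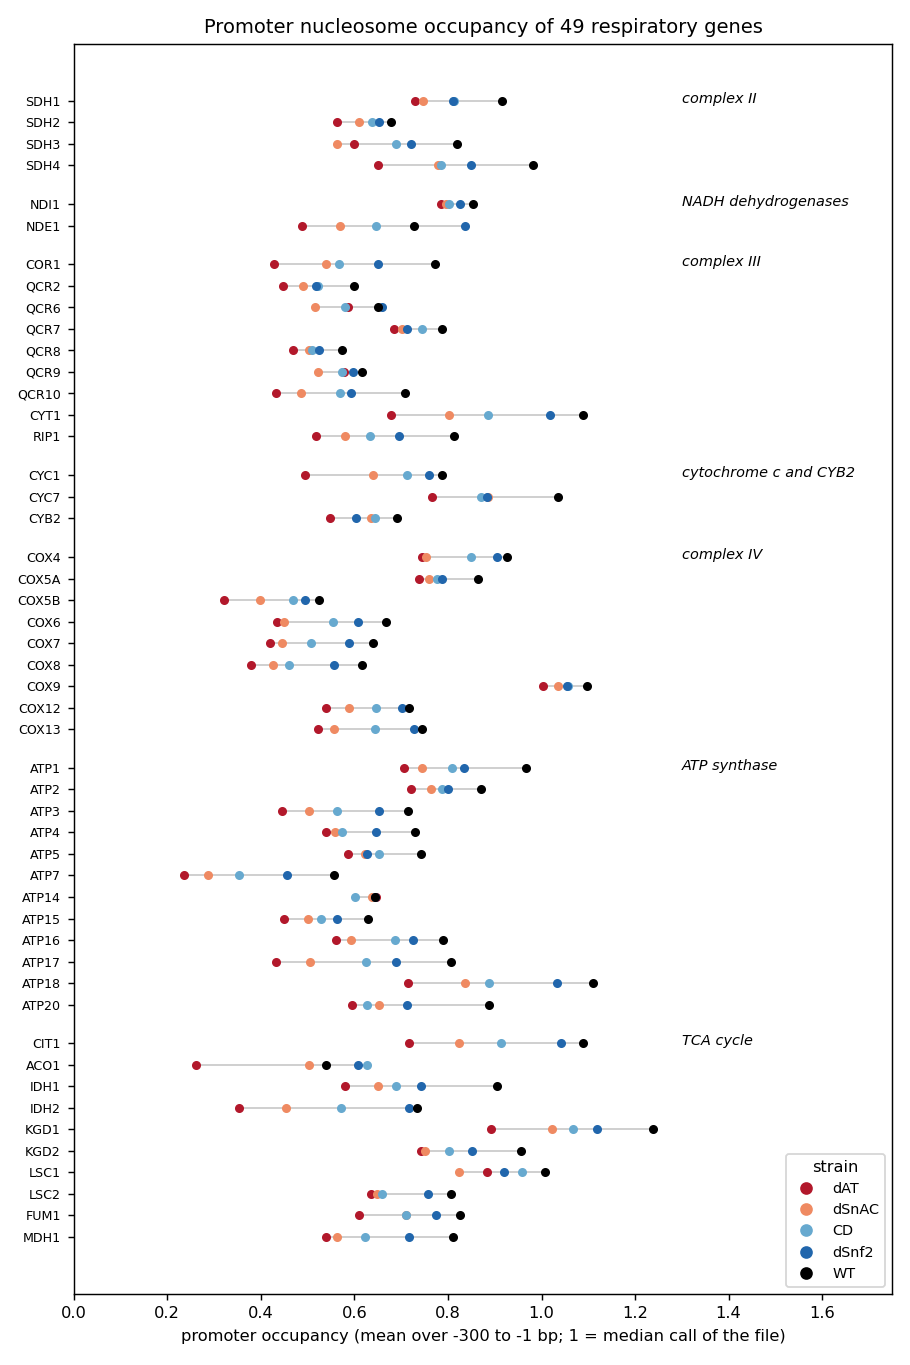
Promoter occupancy (horizontal axis, 1 = median call of the list) of each of the 49 genes, grouped by enzyme complex, with 1 point per strain. WT points lie to the right of the 4 mutants at 45 of 49 genes, and dAT points lie farthest left at 44.

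At a threshold of -0.58, a drop of about 1.49-fold, 8 of the 49 promoters were lower in dAT: COR1, QCR10, CYT1, ATP3, ATP7, ATP17, ACO1 and IDH2. The background at this threshold was 11.0% of all genes. In dSnAC 3 were lower, ATP7, ATP17 and IDH2 (background 3.76%). No member reached it in CD (0.630%) or dSnf2 (0.307%), and none was higher by 0.58 in any mutant (0.204% in dAT, 0.307% in dSnAC, 0.528% in CD, 0.715% in dSnf2). Measured from the all-gene median of each mutant, ATP7 and IDH2 remained past the threshold in dAT (background 1.12%) and no member did in dSnAC, CD or dSnf2 (0.477%, 0.204% and 0.119%). None was higher by that measure (1.35%, 0.852%, 1.02% and 0.954% of all genes in dAT, dSnAC, CD and dSnf2). The counting error of a member's ratio had a 95% half-width between 0.066 and 0.14, and such intervals cover counting error only.

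**Figure D2:**
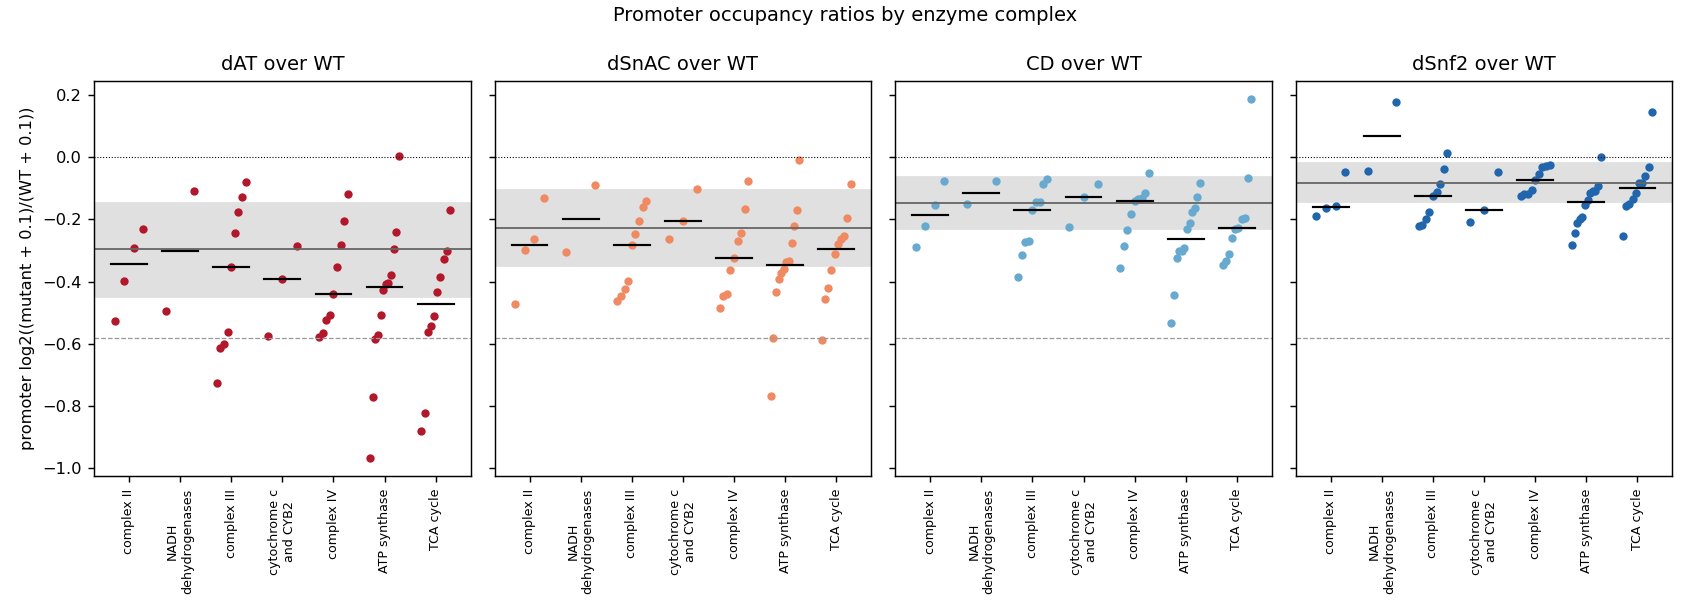
Promoter log2 ratios of the 49 genes (points) by enzyme complex, 1 panel per mutant over WT, with a black bar at each complex's median. The grey band and line are the quartiles and median of all 5871 genes, and the dashed line is the threshold of -0.58, which 8 members pass in dAT, 3 in dSnAC and 0 in CD and dSnf2.

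Complex II, succinate dehydrogenase, links the TCA cycle to the chain. The median ratio of its 4 members was -0.35 for dAT, -0.28 for dSnAC, -0.19 for CD and -0.16 for dSnf2. SDH4 (YDR178W, chromosome IV, 817950 to 818495, plus strand, build R64), a membrane anchor, had promoter occupancies of 0.651 in dAT, 0.779 in dSnAC, 0.785 in CD, 0.850 in dSnf2 and 0.982 in WT, a log2 ratio of -0.53 in dAT. SDH2, the iron-sulfur subunit, differed least, with 0.562, 0.610, 0.638 and 0.652 in the mutants (in the order dAT, dSnAC, CD, dSnf2, kept below) and 0.678 in WT. At SDH3, the other membrane anchor, dSnAC was below dAT, at 0.563 and 0.598, against 0.820 in WT.

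The NADH dehydrogenases NDI1, which faces the matrix, and NDE1, which faces the intermembrane space, differed from each other. NDI1 was nearly level, at 0.785, 0.796, 0.803 and 0.825 in the mutants and 0.854 in WT. NDE1 spread widely, at 0.488, 0.570, 0.646 and 0.837 in the mutants and 0.728 in WT, so dSnf2 alone lay above WT there (log2 ratio 0.18, but 0.023 over a window of -200 to -1 bp). Its nucleosome near -210 bp held 0.711, 0.794, 0.930 and 1.23 in the mutants, and the WT call, centred at -199 bp, held 1.04.

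Complex III, the cytochrome bc1 complex, had 3 of its 9 members past the threshold in dAT. COR1 (YBL045C, chromosome II, 134143 to 135516, minus strand), a core subunit, had 0.427, 0.540, 0.568 and 0.651 in the mutants and 0.772 in WT, a log2 ratio of -0.73 in dAT. The difference sat in a nucleosome about 160 bp upstream of the start codon, whose occupancy was 0.628, 0.809, 0.861 and 1.10 in the mutants and 1.23 in WT, while the call just inside the frame stayed between 0.865 and 0.965 in all 5 lists. CYT1, which encodes cytochrome c1 and is a classic Hap target, had 0.678, 0.803, 0.885 and 1.02 in the mutants and 1.09 in WT. Here, too, an upstream nucleosome was lower, at 0.695, 0.901, 1.04 and 1.28 in the mutants and 1.37 in WT, and the call near +20 bp was not (1.08, 1.08, 1.03 and 1.02 in the mutants, 1.00 in WT).

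QCR10 encodes a small accessory subunit. Its promoter had 0.433, 0.487, 0.569 and 0.593 in the mutants and 0.708 in WT, and its log2 ratio in dAT was -0.60. RIP1, the Rieske iron-sulfur protein, came close to the threshold, with a log2 ratio of -0.56 in dAT. QCR8 had the lowest WT promoter of the complex (0.574) and QCR9 the smallest mean difference, with log2 ratios of -0.081, -0.20, -0.087 and -0.040. QCR6, the acidic hinge subunit, lay at WT level in dSnf2, at 0.658 against 0.651 in WT.

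Of the cytochrome c genes, CYC1, the isoform made in air, had promoter occupancies of 0.496, 0.640, 0.712 and 0.759 in the mutants and 0.787 in WT. Its log2 ratio of -0.58 in dAT was just short of the threshold as defined, and it passed with a window of -200 to -1 bp (-0.65) or -400 to -1 bp (-0.61). CYC7, the isoform of low oxygen, had log2 ratios of -0.39, -0.21, -0.23 and -0.21, and its WT promoter was the highest of the 3, at 1.04. CYB2, the lactate dehydrogenase that feeds cytochrome c, had 0.549, 0.637, 0.645 and 0.604 in the mutants and 0.691 in WT, with dSnf2 below CD and dSnAC.

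No member of complex IV, cytochrome c oxidase, passed the threshold, though several came near it in dAT. COX8 had a log2 ratio of -0.58 there, just short, and promoter occupancies of 0.426 in dSnAC, 0.460 in CD, 0.557 in dSnf2 and 0.617 in WT. COX5B, the subunit isoform used at low oxygen, had 0.322, 0.399, 0.468 and 0.494 in the mutants, against 0.525 in WT, the lowest WT promoter of the complex. COX5A, its aerobic counterpart, was at 0.738, 0.761, 0.776 and 0.788 in the mutants and 0.865 in WT, log2 ratios of -0.20, -0.17, -0.14 and -0.12. COX9 differed least, at 1.00, 1.03, 1.06 and 1.05 in the mutants, against 1.10 in WT, the highest WT promoter of the complex. The ratios depend on the window. In the 100 bp nearest the start codon, the dAT ratio was -0.84 at COX7 and -0.66 at COX5B. It was -0.088 at COX4, -0.034 at COX5A and -0.033 at COX9, and no other member of the complex was past -0.58 there.

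The ATP synthase held both the promoter with the lowest ratio in dAT, ATP7, and the one with the highest there, ATP14. ATP7 (YKL016C, chromosome XI, 407465 to 407989, minus strand), a stator stalk subunit, had 0.236, 0.286, 0.354 and 0.455 in the mutants and 0.557 in WT. Its log2 ratios were -0.97, -0.77, -0.53 and -0.24, with a counting half-width of 0.13 in dAT, and in dAT only 32 of 5871 genes were lower. A single nucleosome carried the difference: the call near -82 bp held 0.469, 0.584, 0.711 and 0.917 in the mutants and 1.10 in WT. The next call, 95 to 100 bp inside the frame, was level at 1.43, 1.38, 1.40 and 1.34 in the mutants and 1.42 in WT.

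ATP17, which encodes subunit f, had 0.432, 0.506, 0.624 and 0.689 in the mutants and 0.807 in WT, with log2 ratios of -0.77 in dAT and -0.58 in dSnAC. Calls on both sides of its depleted region were lower, the upstream one at 0.837, 0.891, 1.12 and 1.15 in the mutants against 1.34 in WT, and the downstream one at 0.843, 1.03, 1.07 and 1.22 against 1.39. ATP3, the gamma subunit of the rotor, had 0.445, 0.504, 0.562 and 0.653 in the mutants and 0.716 in WT, and a log2 ratio of -0.58 in dAT that was just past the threshold. ATP20, which encodes subunit g, had the lowest ratio of the 49 in dSnf2, -0.28 on the log2 scale, -0.51 in dAT, -0.39 in dSnAC and -0.44 in CD. ATP18, subunit i/j, had 0.715, 0.836, 0.888 and 1.03 in the mutants, against 1.11 in WT, the highest WT promoter of the complex.

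At the other end, ATP14, which encodes subunit h, had 0.646, 0.638, 0.602 and 0.644 in the mutants and 0.644 in WT. Its nucleosome at -7 or -8 bp was higher in dAT, dSnAC and dSnf2 than in WT, at 1.72, 1.70, 1.50 and 1.62 in the mutants and 1.52 in WT. Of the subunits of the catalytic head, ATP1 had a log2 ratio of -0.41 in dAT and ATP2 one of -0.24. The ATP2 window is a mixed one, because 56.7% of it lies in the frame of the neighbouring gene, and for COX6 that share is 57.0%.

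Among the TCA cycle genes IDH2 (YOR136W, chromosome XV, 580250 to 581359, plus strand), a subunit of NAD-dependent isocitrate dehydrogenase, came next to ATP7. It had 0.353, 0.455, 0.572 and 0.716 in the mutants and 0.734 in WT, log2 ratios of -0.88, -0.59, -0.31 and -0.031. Its nucleosome near -190 bp held 0.333, 0.568, 0.691 and 0.945 in the mutants and 0.985 in WT, where it was centred at -181 bp. A weaker call farther upstream, near -350 to -374 bp, held 0.0361, 0.0409, 0.0700 and 0.137 in the mutants and 0.301 in WT. IDH1, the partner subunit, shared the order, with log2 ratios of -0.56, -0.42, -0.35 and -0.25 and promoter occupancies of 0.650 in dSnAC, 0.689 in CD, 0.743 in dSnf2 and 0.904 in WT.

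ACO1 (YLR304C, chromosome XII, 735212 to 737548, minus strand), aconitase, set dAT apart from the other mutants. Its promoter had 0.262 in dAT, against 0.502 in dSnAC, 0.628 in CD, 0.608 in dSnf2 and 0.540 in WT, log2 ratios of -0.82, -0.087, 0.19 and 0.15. The dAT list had 1 call in the window, at -135 bp with 0.529. The dSnAC, CD and dSnf2 lists had a call at -79 or -80 bp with 0.866, 1.00 and 1.01, and WT one at -88 bp with 1.09. Weak calls near -227 bp, with 0.160 in dSnAC, 0.222 in dSnf2 and just under 0.25 in CD, were absent from dAT and WT. With calls below 0.25 left out the ratios were -0.069 in CD and -0.082 in dSnf2. In dSnf2 the ratio was also near 0 over -200 to -1 bp (-0.0026).

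**Figure D3:**
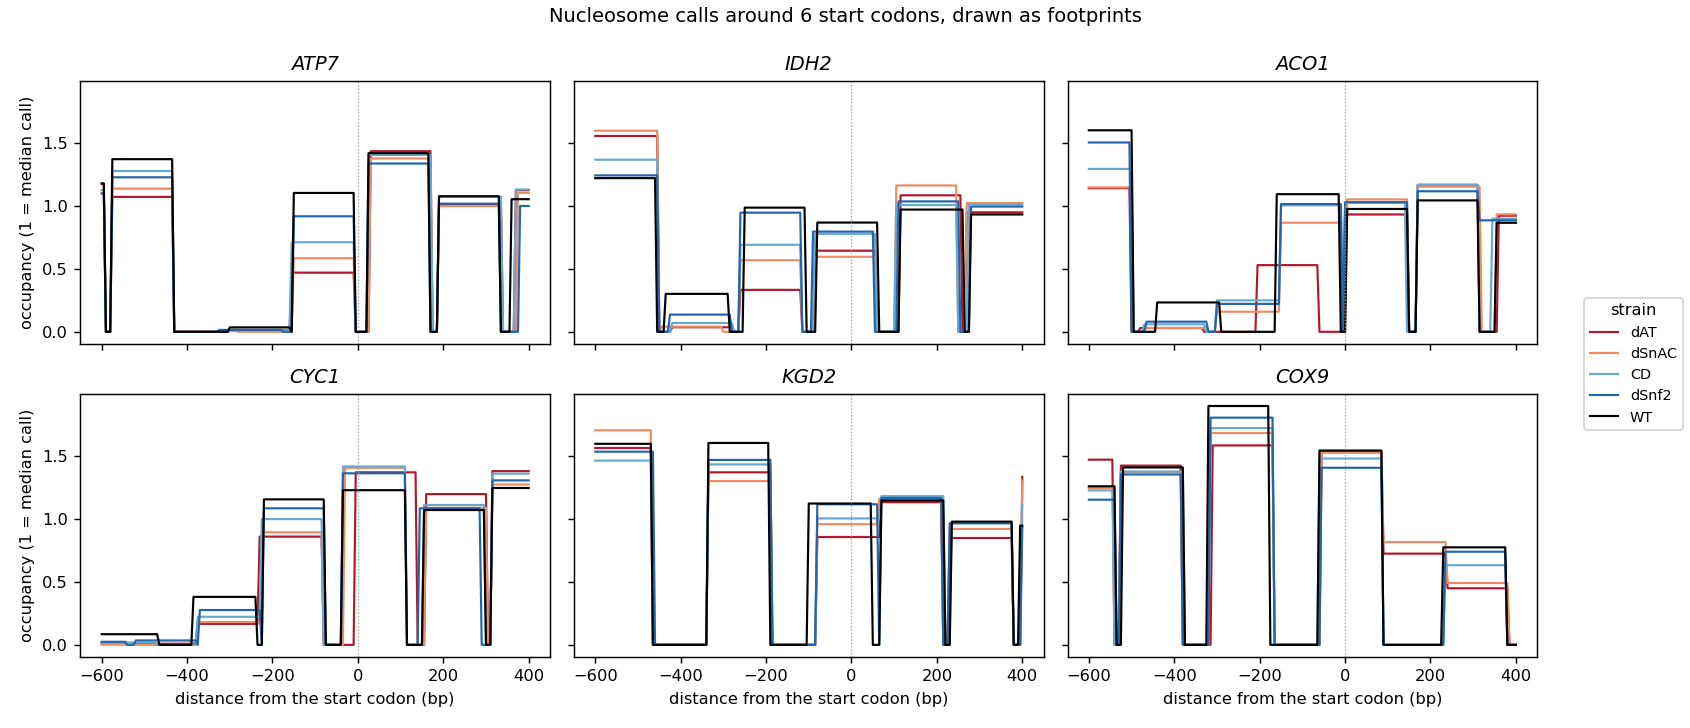
Nucleosome calls at 6 genes, drawn as footprints of 147 bp, by distance from the start codon in bp (horizontal) and occupancy (vertical, 1 = median call). At ATP7 and IDH2 an upstream nucleosome steps up in the order dAT, dSnAC, CD, dSnf2, WT, at ACO1 and CYC1 a dAT call is displaced, at KGD2 the WT call lies upstream of the mutants', and at COX9 dAT and dSnAC have a call inside the frame that the other lists lack.

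KGD1, a subunit of 2-oxoglutarate dehydrogenase, had 0.891, 1.02, 1.07 and 1.12 in the mutants, against 1.24 in WT, the highest WT promoter of the 49. Citrate synthase CIT1 had 0.716, 0.824, 0.914 and 1.04 in the mutants and 1.09 in WT. Malate dehydrogenase MDH1 had log2 ratios of -0.51, -0.46, -0.33 and -0.16, and its nucleosome at -85 or -86 bp was 0.954, 1.01, 1.11 and 1.34 in the mutants and 1.49 in WT. LSC1, a subunit of succinyl-CoA ligase, departed from the order, with dSnAC lowest at 0.823, against 0.883 in dAT, 0.957 in CD, 0.921 in dSnf2 and 1.01 in WT.

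Averaged over the 49 genes, the profile was deepest 160 bp upstream of the start codon in all 5 lists. The mean there was 0.323, 0.342, 0.374 and 0.410 in the mutants and 0.474 in WT, and the all-gene profile, lowest at -140 or -120 bp, had minima of 0.357, 0.381, 0.414 and 0.444 in the mutants and 0.472 in WT. Minima of the respiratory genes were thus lower in the mutants and level in WT. At -140 bp the respiratory genes lay above all genes instead, with 0.434 in dAT and 0.646 in WT, against 0.357 in dAT and 0.472 in WT over all genes. Downstream the order turned. At 20 bp upstream of the start codon the respiratory genes averaged 0.923, 1.04, 1.08 and 1.12 in the mutants and 1.19 in WT, while at 120 bp inside the frame they averaged 1.13, 1.15, 1.09 and 1.02 in the mutants and 1.01 in WT. Over all genes the means at -20 bp were 0.944, 0.981, 1.02 and 1.06 in the mutants and 1.13 in WT. At 120 bp they were 0.949, 0.947, 0.926 and 0.912 in the mutants and 0.917 in WT. Over all genes, too, dAT, dSnAC and CD thus lay above WT at 120 bp.

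**Figure D4:**
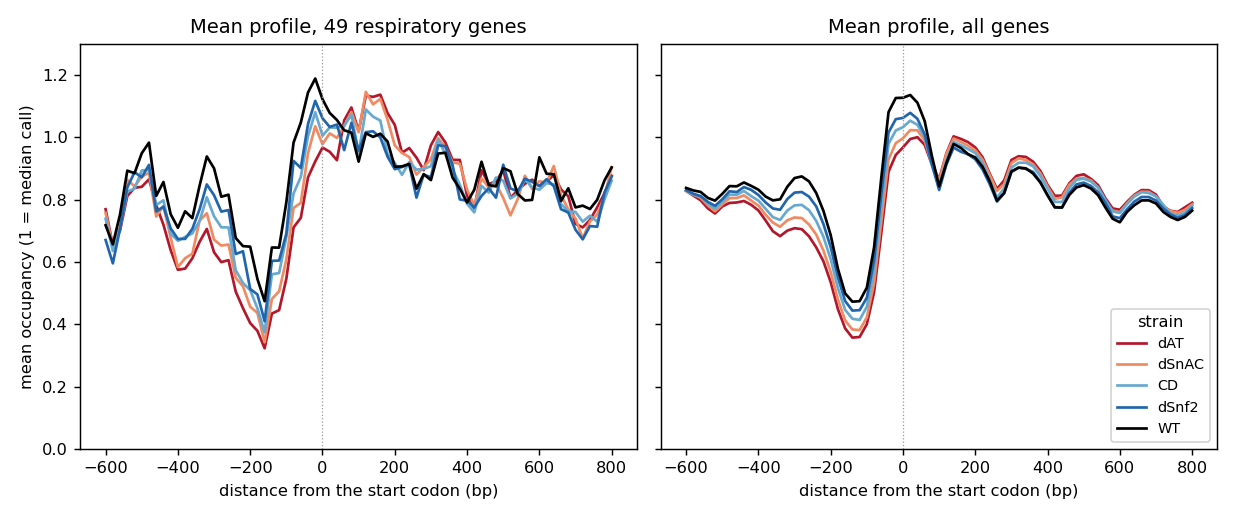
Mean occupancy (vertical, 1 = median call) by distance from the start codon in bp (horizontal) for the 49 respiratory genes, left, and for all 5871 genes, right, 1 line per strain. At -160 bp the respiratory mean is 0.323 in dAT and 0.474 in WT, and at 120 bp the lines cross to 1.13 in dAT and 1.01 in WT.

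Frame occupancy, the mean from start to stop codon including any intron, was higher at the median in dAT, dSnAC and CD and lower in dSnf2 than in WT. The median over the 49 genes was 0.983, 0.976, 0.929 and 0.905 in the mutants and 0.913 in WT, and over all genes 0.895, 0.891, 0.882 and 0.868 in the mutants and 0.865 in WT. Frames were higher than in WT at 34 of 49 genes in dAT (background 57.4%), 35 in dSnAC (56.9%), 31 in CD (54.1%) and 22 in dSnf2 (46.4%). No member's frame was higher by 0.58 in any mutant (0.818%, 0.460%, 0.392% and 0.255% of all genes) or lower by as much (0.647%, 0.273%, 0.119% and 0.119%). At a smaller threshold of 0.2, chosen after the values were seen, dAT had 15 higher frames (background 19.4%), dSnAC 8 (14.2%), CD 1, ATP2 (7.26%), and dSnf2 0 (4.24%). Lower by as much were QCR8, QCR10, COX7 and ATP18 in dAT (9.67%), QCR10 and COX7 in dSnAC (6.46%) and in CD (3.22%), and CIT1 in dSnf2 (2.08%).

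ATP2, the beta subunit of the catalytic head, had frame occupancies of 0.873, 0.821, 0.757 and 0.683 in the mutants and 0.621 in WT, the lowest WT frame of the 49. Its partner ATP1, the alpha subunit, ran alike, at 0.928, 0.859, 0.805 and 0.737 in the mutants and 0.690 in WT. At COX9 the dAT and dSnAC frames had 1.11 and 1.16, against 0.706 in CD, 0.703 in dSnf2 and 0.745 in WT. The COX9 frame is short, and the difference was a call 162 or 163 bp inside it, with 0.724 in dAT and 0.815 in dSnAC, that the other 3 lists lacked. It lay 148 bp from the call before it, and no smaller spacing was measured at the 49 genes. In CD, dSnf2 and WT the calls on either side of that place lay 292, 288 and 290 bp apart. Whether the placing of calls has a part in this frame difference was not tested.

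COX7, another small subunit of complex IV, ran the other way, at 0.739, 0.803, 0.927 and 1.07 in the mutants and 1.14 in WT. Its nucleosome over the start codon, centred 9 to 12 bp inside the frame, held 0.686, 0.800, 1.01 and 1.23 in the mutants and 1.40 in WT. In QCR10 the frame was also lower, at 0.912, 0.947, 1.02 and 1.07 in the mutants and 1.22 in WT. ATP18 had frames of 1.07, 1.17, 1.19 and 1.25 in the mutants, against 1.35 in WT, the highest WT frame of the 49. Promoter lower and frame higher than WT together were seen in dAT at 33 of 49 genes, against 50.8% of all genes.

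**Figure D5:**
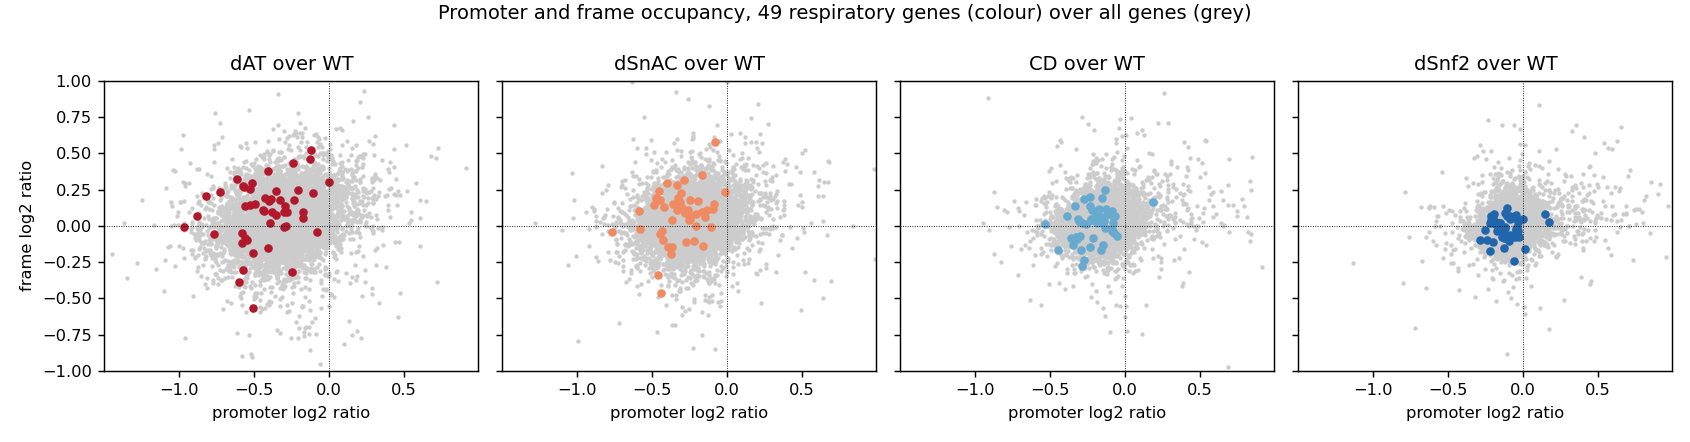
Frame log2 ratio (vertical) against promoter log2 ratio (horizontal), 1 panel per mutant over WT, with the 49 respiratory genes in colour over all genes in grey. Members lie left of 0 at 48, 49, 48 and 46 of 49 genes in dAT, dSnAC, CD and dSnf2, and none is past 0.58 in either direction on the vertical axis (grey points beyond the axes are not drawn).

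Occupancy was lower past the genes' ends as well. In the second 100 bp after the stop codon the median over the 49 genes was 0.419, 0.476, 0.603 and 0.660 in the mutants and 0.717 in WT. The median log2 ratio there was -0.66, -0.49, -0.25 and -0.16, against -0.38, -0.28, -0.18 and -0.086 over all genes. This stretch can belong to a neighbour's promoter and was not split by neighbour.

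The nucleosome-depleted region was taken as the largest step between neighbouring dyads (nucleosome centres) whose middle fell between -350 and 50 bp, and the dyad on its gene side as +1. In WT this gap was at least 200 bp at 24 of the 49 genes, against 68.6% of all genes. With weak calls, those under 0.25, left out, it was at 39 of 49 and at 84.6% of all genes, because weak calls divide many of these gaps. At QCR9, for example, WT had a call of 0.0544 at -202 bp between nucleosomes of 1.31 and 1.41. The widest WT gap with all calls kept was that of QCR7, 289 bp, and the narrowest that of SDH2, 152 bp. This ranking rests on the weak calls. Without them the WT gap of SDH2 measured 300 bp and that of QCR7 289 bp. The widest was then that of ACO1, 483 bp, and the narrowest that of ATP2, 161 bp. Another gap than the WT one was the widest at 12 members for dAT, 7 for dSnAC, 7 for CD and 9 for dSnf2 (19.1%, 17.6%, 15.6% and 14.3% of all genes).

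Where the gap was at the WT place, 5 of 37 were wider by 20 bp or more in dAT: COR1, CYC1, CYB2, ATP17 and ATP20 (background 5.65%). The same was seen for ATP17 and ATP20 in dSnAC (4.93%), ATP20 in CD (3.46%), and CYB2 and ATP20 in dSnf2 (3.48%). The ATP20 gap measured 282, 280, 281 and 278 bp in the mutants and 255 bp in WT, so all 4 mutants differed alike. Its upstream flank made the difference, with a dyad at -294, -292, -294 and -293 bp in the mutants and at -270 bp in WT. Narrower by as much were SDH4 in dAT (5.18%) and SDH4 and QCR6 in dSnAC (4.85%), and none in CD (3.83%) or dSnf2 (4.05%). Without weak calls the COX5B gap was narrower in CD, at 261 bp against 320 bp in WT (4.07%). The QCR6 gap was then narrower in dAT, at 148 bp against 226 bp in WT (4.40%). The SDH4 gap measured 232, 233, 248 and 238 bp in the mutants and 253 bp in WT.

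A +1 dyad moved by 20 bp or more at few members. In dAT it lay downstream of its WT place at CYC1 and CYB2 (background 2.05%) and upstream at ACO1 (4.85%). In dSnAC none lay downstream (1.60%) and QCR9 was counted upstream (4.46%). The QCR9 dyad so matched lay inside the frame, at 95 bp in dSnAC and 122 bp in WT, because the weak call divides the WT gap, and without weak calls its +1 dyad was at -53 bp in dSnAC and -51 bp in WT. In CD it was downstream at KGD2 (1.38%) and upstream at QCR6 (4.51%), and in dSnf2 downstream at CYB2 (1.36%) and upstream at QCR6 (4.79%). Without weak calls COX5B was upstream in CD as well, at -80 bp against -21 bp in WT (background 3.29%). With all calls kept, a weak WT call at -169 bp was taken as its +1 and had no match in CD.

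The CYC1 dyad was at 65 bp in dAT, at 39, 37 and 38 bp in dSnAC, CD and dSnf2, and at 38 bp in WT. That of CYB2 fell into 2 sets, at -118 and -119 bp in dAT and dSnf2 and at -144, -144 and -143 bp in dSnAC, CD and WT. At QCR6 CD and dSnf2 had it at -79 and -77 bp, and dAT, dSnAC and WT had a call at -44, -47 and -43 bp. At KGD2, the dihydrolipoyl succinyltransferase of 2-oxoglutarate dehydrogenase, WT stood apart, at -27 bp, with the mutants at -8, -10, -7 and -10 bp. Only CD reached 20 bp there, and dAT, dSnAC and dSnf2 differed by 19, 17 and 17 bp. The deposited SD of the dyad was 32.1 bp in dAT and 35.3 bp in WT at CYC1. At CYB2 it was 31.8 bp in dAT, 30.7 bp in dSnf2 and 31.1 bp in WT. At QCR6 it was 34.9 bp in CD, 34.5 bp in dSnf2 and 35.6 bp in WT. At KGD2 it was 26.2 bp in CD and 24.5 bp in WT, and at ACO1 36.5 bp in dAT and 39.8 bp in WT. Except at ACO1, the shifts at these genes were thus about as large as the SD or smaller. The SD was not taken as the error of a called dyad, so it does not say how certain a shift is.

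The genes share some features that the list did not use. An upstream neighbour read in the same direction was found at 30 genes and a divergent one at 19, whereas 52.1% of all genes have a divergent one. The promoter window was free of neighbouring frames at 42 of 49 genes, against 70.8% of all genes. Distance to the upstream neighbour had a median of 492 bp, against 445 bp over all genes.

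Other genes of the pathway, 91 in 7 lists of assembly factors, isozymes, carriers, pyruvate dehydrogenase subunits, translational activators and Hap regulators, had median promoter log2 ratios of -0.27, -0.20, -0.15 and -0.098, against -0.30, -0.23, -0.15 and -0.085 over all genes. By list, the dAT median was -0.30 for 29 assembly factors of the electron transport complexes, -0.29 for 12 ATP synthase assembly and accessory genes, -0.27 for 12 isozymes, -0.27 for 17 dehydrogenases and carriers, -0.33 for 5 pyruvate dehydrogenase subunits, -0.13 for 11 translational activators and -0.13 for 5 Hap regulators. In dAT and dSnAC the median of the 91 thus lay above that of all genes, while that of the 49 members lay below it. Of the 91, dAT had 9 lower by 0.58 (background 11.0%), dSnAC 3 (3.76%), and CD and dSnf2 0 (0.630% and 0.307%), shares no higher than the background. A single gene was higher in CD (0.528%) and in dSnf2 (0.715%). LPD1, the lipoamide dehydrogenase shared by the pyruvate and 2-oxoglutarate complexes, was the lowest, at 0.256, 0.316, 0.411 and 0.475 in the mutants and 0.628 in WT, a log2 ratio of -1.03 in dAT. Also lower in dAT were the complex III assembly factor MZM1 (-0.87), the main ADP/ATP carrier PET9 (-0.74), the outer-membrane porin POR1 (-0.69), the carrier PIC2 (-0.68), the assembly factors COX16 (-0.64) and CBP4 (-0.60), and the pyruvate dehydrogenase component PDX1 (-0.58). MZM1 and POR1 joined LPD1 in dSnAC, at -0.72 and -0.59.

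AAC1, a minor ADP/ATP carrier isoform, was the gene with a higher promoter. It had 0.338, 0.336, 0.437 and 0.523 in the mutants and 0.232 in WT, log2 ratios of 0.40, 0.39, 0.69 and 0.91. The major isoform PET9 was lower in all 4 mutants, at 0.328, 0.392, 0.458 and 0.484, against 0.614 in WT. HAP4, the regulatory subunit of the Hap complex, had 0.535, 0.526, 0.701 and 0.796 in the mutants and 0.712 in WT.

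Part of the respiratory chain is encoded in mitochondrial DNA, which carries no nucleosomes, and the lists also held calls there. Reads in mitochondrial calls were 1668 in dAT, 2818 in dSnAC, 19611 in CD, 19042 in dSnf2 and 24119 in WT, or 0.00424%, 0.00884%, 0.0328%, 0.0462% and 0.0371% of each list. The exact 95% binomial intervals were 0.00404 to 0.00445%, 0.00852 to 0.00917%, 0.0324 to 0.0333%, 0.0455 to 0.0468% and 0.0366 to 0.0376%. They cover counting error only and not the variation between cultures or DNA preparations. The shares were thus low in dAT and dSnAC, the mutants with the lowest respiratory promoters, and higher in CD, WT and dSnf2, in the order of the promoter medians but for the last pair. The promoter medians of all genes run in that same order, so the order is not particular to the respiratory genes. Over COX1, a mitochondrial subunit gene of complex IV, the calls held 243, 469, 3511 and 3732 reads in the mutants and 4015 in WT. The part of this difference in the promoter values was not tested.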

How the data were processed

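MNase-seq of 14 yeast samples in 5 strains was deposited as 1 list of nucleosome calls per strain, made on merged replicates, per the labels. The submitters' processing notes name the aligner Bowtie and the build sacCer3, and the caller was not given in the sources used here. Dyad positions and their SDs in bp are given with an occupancy signal deposited by the authors, whose scaling those sources do not state, and a deposited fraction (conditional position) that was not used. Divided by the lowest value of its list, each occupancy came out whole to within 0.01 (100% of calls), and the quotient was taken as reads.

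Occupancy was divided by the median nuclear call outside the ribosomal DNA, and calls were drawn as 147 bp footprints. Gene coordinates were those of RefSeq for R64 (sacCer3), and 131 near chromosome ends were left out. RefSeq's table lacks strands, which were inferred from the W or C in systematic names. On both strands the median WT occupancy in the second 100 bp upstream of the start codon (0.392 and 0.436) was below that in the first 100 bp of the frame (1.06 and 1.07). Ratios used a pseudocount of 0.1, which understates changes at low occupancy, and a threshold of 0.58. Dyads were matched as mutual nearest within 73 bp. No count model could be fitted with 1 pooled list per strain, so differences are described by size. The measuring scripts were tested on simulated data made from the WT calls. Occupancies were changed and dyads moved there, but no calls were added or removed.

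The members, the 7 lists of other genes and the measures were chosen with earlier results of these data known. Named genes were those past a threshold in any mutant, the 3 members with the highest and the 3 with the lowest promoter ratio in each mutant, the extremes of each complex, moved +1 dyads, and the extreme gaps and frames in WT; others are named for comparison after their values were seen. Python 3.11.15, numpy 2.4.6, pandas 2.3.3 and scipy 1.17.1 were used. Alternatives changed the scaling, pseudocount, window, threshold, call filter, gap position and footprint. Promoter sequences were not used here. Of the other pathway genes past the threshold, 1 is counted but not reported by name here.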

Additional observations from a re-analysis of the deposited data

How the results depend on the processing

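No value past its threshold changed sign under the alternatives, and 181 of 220 summary values stayed close to those reported. Of the values of single members, 2070 stayed close and 282 did not. Drawing each call from its deposited start to stop gave the reported promoter counts and medians again, so that alternative was no separate check of them. Members lower at the promoter numbered 5 in dAT and 1 in dSnAC with a pseudocount of 0.25, 17 in dAT and 1 in CD with 0.02, 14 in dAT over -200 to -1 bp, 13 in dAT over -400 to -1 bp, and 1 in dSnAC when scaled by total occupancy. A threshold of 0.38 gave 29 in dAT, 15 in dSnAC and 3 in CD (35.5%, 20.1% and 4.62% of all genes), and counting from the all-gene median gave 2 in dAT and 0 in dSnAC. The all-gene shares in dAT were 3.56%, 17.7%, 10.8% and 9.28% for the pseudocounts 0.25 and 0.02 and the windows from -200 and -400 bp. The median promoter ratio was -0.35 in dAT and -0.25 in dSnAC with a pseudocount of 0.25, and relative to the all-gene median it was -0.11 for dAT, -0.070 for dSnAC, -0.049 for CD and -0.032 for dSnf2. Scaling by total occupancy put 1 frame in dSnAC, COX9, past 0.58.

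Moved +1 dyads at 10 bp numbered 9, 6, 4 and 6 in dAT, dSnAC, CD and dSnf2 (14.7%, 12.9%, 10.9% and 10.7% of all genes measured), and dSnAC had 0 with gap midpoints from -250 to 0 bp and 0 without weak calls (4.42% and 4.32%). Wider gaps at 10 bp numbered 10, 8, 3 and 5 (14.5%, 12.0%, 7.70% and 6.81%), and CD had 2 with midpoints from -250 to 0 bp (4.85%). Narrower gaps numbered 2 in dAT, 4 in dSnAC and 1 in dSnf2 at 10 bp (10.6%, 10.4% and 8.14%), 2 in dAT, 1 in CD and 1 in dSnf2 with the other midpoints (6.91%, 4.91% and 4.96%), and 2 in dAT, 1 in dSnAC and 1 in CD without weak calls (4.40%, 3.94% and 4.07%). The cause of these differences was not tested.

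No paired analysis was possible because each list pools its replicates, and for the same reason results could not be recomputed without single replicates. The labels of the dAT and dSnAC lists name only 2 of the 3 samples of each strain, and the remaining sample of each was taken as not merged. These lists also had the lowest promoter medians and mitochondrial shares. Whether the choice of merged samples has a part in that was not tested. The 5 lists differ in depth, dSnAC being the shallowest, and in the number of samples merged. Where a median call held 514 reads (dSnAC) to 1030 (WT), counting error is the only error these lists give, and the variation between cultures and digestions is not in them.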
